A study of Mus musculus with 9 samples.

Results

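The late change under acetaminophen was read as the difference between TAMH cells exposed to it for 24 h and for 6 h, which are 2 of the 9 arrays of the series, with 1 array for each treatment and time. TAMH is a mouse hepatocyte line established from mice that carry a transforming growth factor alpha transgene. All 9 RNA samples came from this single line, labelled C57BL/6, and the promoter of the transgene is not given in the sources used here. Confluent cells received acetaminophen (APAP) at 2 mM, its regioisomer AMAP at 2 mM or control medium for 2, 6 or 24 h, in 2 dishes per treatment. The groups used were APAP at 24 h and 6 h, AMAP at 24 h and 6 h, and control medium at 24 h and 6 h, with the 2 h arrays shown for the time course.

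Affymetrix 430A_2 arrays measure a gene with one or several probe sets, and values are log2 expression values, so a difference of 1 is 2-fold. Of 22690 probe sets, 20380 carried 1 gene symbol, for 12393 genes. A probe set was used where it reached 5.66, the median of all values, at 24 h or at 6 h, which left 7132 genes under APAP. Of these, 2661 had 2 or more usable probe sets and could be judged by their agreement. A probe set could be admitted by 1 of the 2 arrays alone, which favours large differences, and not each such case is marked below. A gene is called agreed below when its probe sets differed by at least 1 on average and by at least 0.5 each in the same direction. A standard deviation (SD) given for a gene is over its probe sets, which measured the same RNA, and is not a spread between cultures. With 1 array per group no difference has a replicate check, and no p-value is given.

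Acetaminophen is oxidised in hepatocytes to a reactive quinone imine that consumes glutathione and then binds proteins, among them mitochondrial proteins. AMAP carries the same groups with the hydroxyl at the meta position of the ring and is less toxic to mouse liver. DNA damage and other stress stabilise the transcription factor p53, which induces genes that halt the cell cycle, such as Cdkn1a, and its own inhibitor Mdm2. Amino acid shortage and unfolded protein in the endoplasmic reticulum act through another factor, ATF4, whose targets include Ddit3, Trib3 and Nupr1.

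From 6 to 24 h of APAP, 67 genes were agreed higher and 16 agreed lower, which is 2.52% and 0.601% of the 2661 genes with 2 or more usable probe sets. Over the same hours in control medium 11 genes were agreed higher and 4 lower, which is 0.42% and 0.153% of 2619 genes. Under AMAP 45 were agreed higher and 74 lower, 1.67% and 2.75% of 2694 genes. The median difference of all usable genes was 0.06 under APAP, 0.09 under AMAP and -0.08 in control medium. Of the agreed genes under APAP, 80.7% were higher. That split fell to 66.1% (41 higher, 21 lower) when each array was centred on its median, which moved the median of all genes by -0.119. It was 69.7% (53 and 23) after quantile normalization and 71.4% (50 and 20) after cyclic loess. Read from the APAP 2 h array in place of 6 h, it was 56.2% (86 and 67). Probe sets of a gene often disagreed: of 352 genes with at least 1 probe set 2-fold apart, 23.6% met the agreement rule and 269 did not. Genes with 1 usable probe set could not be checked in this way. Of them 244 were higher by 1 or more and 89 lower by 1 or more, and these are called unchecked below.

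Spike-in transcripts set both APAP arrays apart from others, but not all in the same way. The array has 2 pairs of probe sets for the dap transcript, which is added to the RNA before labelling. In the first pair the middle probe set was below the 3′ one by 1.58 at APAP 24 h and 1.72 at APAP 6 h, by 1.94 at AMAP 24 h, and by 0.44 to 0.60 on the other 6 arrays in size (log2). In the second pair it was below by 0.42 at APAP 24 h, the smallest gap of the 9 arrays, and by 1.03 at APAP 6 h, the largest, with 0.73 at AMAP 24 h. The cre hybridisation transcript had a 5′ minus 3′ difference of -0.12 at 24 h and -1.12 at 6 h. All 18 usable hybridisation spike-in probe sets were higher at APAP 24 h than at 6 h, with a median of 0.66 and a highest of 1.69, whereas 17 of 18 were lower in control medium at 24 h, with a median of -0.19. The part of the spike-in differences in the results was not tested.

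**Figure D1:**
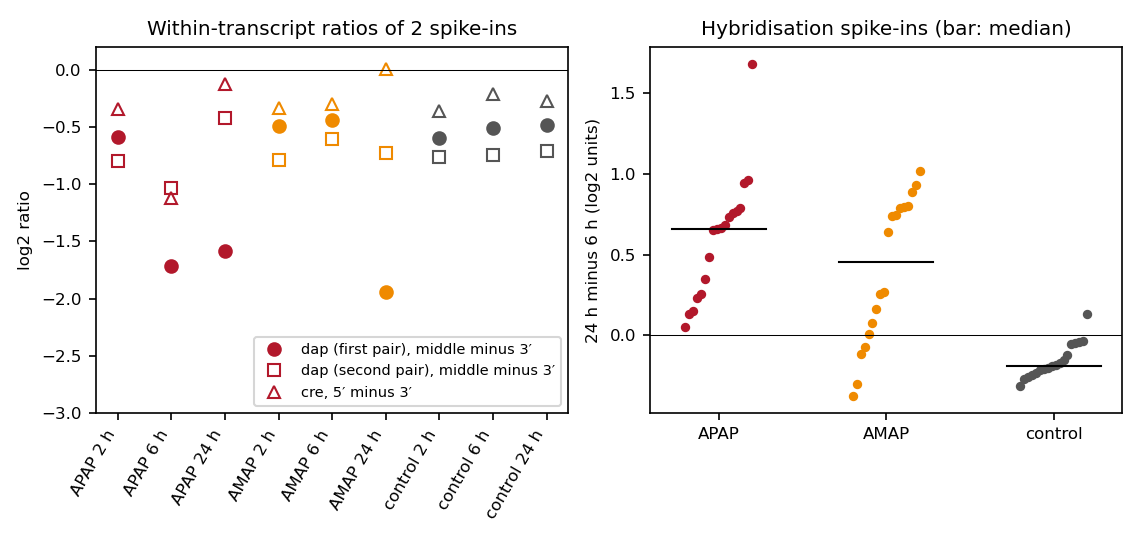
Left, log2 differences within 2 spike-in transcripts on each of the 9 arrays (filled circles and open squares, dap middle minus 3′ in its first and second pair of probe sets; open triangles, cre 5′ minus 3′); right, the 24 h minus 6 h difference of the 18 hybridisation spike-in probe sets for each treatment, with the median as a bar. APAP 24 h and 6 h lie together on the first dap pair, at -1.58 and -1.72, and apart on the second, at -0.42 and -1.03, and on cre, at -0.12 and -1.12.

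Hepatocyte markers were present throughout: Alb, the gene of serum albumin, lay between 12.80 and 13.28 on the 9 arrays, and all 6 markers measured were above the median. The 8 endothelial markers were all below the median on every array, and their sums of log2 values were 30.3 at APAP 24 h and 32.2 at 6 h, against 27.5 and 27.6 in control medium. Among 8 macrophage markers Cd14 was above it, and among 8 stellate cell and fibroblast markers Dcn and Des were. Of 5 cholangiocyte markers 4 were above it. The brightest probe sets of the hepatocyte markers summed to 67.1 at APAP 24 h and 63.6 at 6 h, and to 64.2 in control medium at 24 h and 63.9 at 6 h. Those of the macrophage markers summed to 38.5 at APAP 24 h and 39.3 at 6 h, and to 36.7 in control medium at 24 h and 37.0 at 6 h (sum of log2 values). Those of the stellate markers summed to 39.0 at APAP 24 h and 39.9 at 6 h, against 38.1 and 37.3 in control medium. Dim values were higher in general on the APAP arrays. The lower quartile of all values was 3.82 at APAP 24 h and 3.92 at 6 h, against 3.58 and 3.63 in control medium. The part of this in the sums of markers below the median was not tested. Fewer cells of a type and less RNA per cell cannot be told apart here.

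Txnip gave the largest agreed difference under APAP. Its protein binds thioredoxin and restrains glucose uptake, and glucose is known to induce it through a carbohydrate response element close to its start. That promoter is shown because it carries the element: the sequence is from RefSeq (GRCm38.p6), chr3:96557707-96558006 on the plus strand, 250 bases before to 50 after the start, with the element in capitals.
Txnip: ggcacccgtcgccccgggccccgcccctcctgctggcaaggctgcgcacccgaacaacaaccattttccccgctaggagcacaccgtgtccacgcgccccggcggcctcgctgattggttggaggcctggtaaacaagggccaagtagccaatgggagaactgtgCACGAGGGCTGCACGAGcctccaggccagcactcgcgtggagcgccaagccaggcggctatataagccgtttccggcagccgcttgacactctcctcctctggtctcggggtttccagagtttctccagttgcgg
The element was searched on both strands as a pair of CACGNG half-sites with a spacer of 5 bases, and it occurs in 0.0487% of 32851 RefSeq promoter windows of this length. Of 56 agreed higher genes with a window in the table, Txnip was the one that held it. Txnip was at 7.47, 7.51 and 10.16 after 2, 6 and 24 h of APAP, at 10.003, 7.40 and 8.83 with AMAP, and at 7.82, 7.46 and 7.71 in control medium. APAP 24 h was the highest of the 9 arrays and AMAP 2 h came next to it. The difference between 24 h and 6 h was 2.65 ± 0.17 under APAP (SD, 2 probe sets), a 6.30-fold higher value at 24 h, against 0.24 ± 0.07 in control medium. Under AMAP it was agreed too, at 1.43 ± 0.15.

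**Figure D2:**
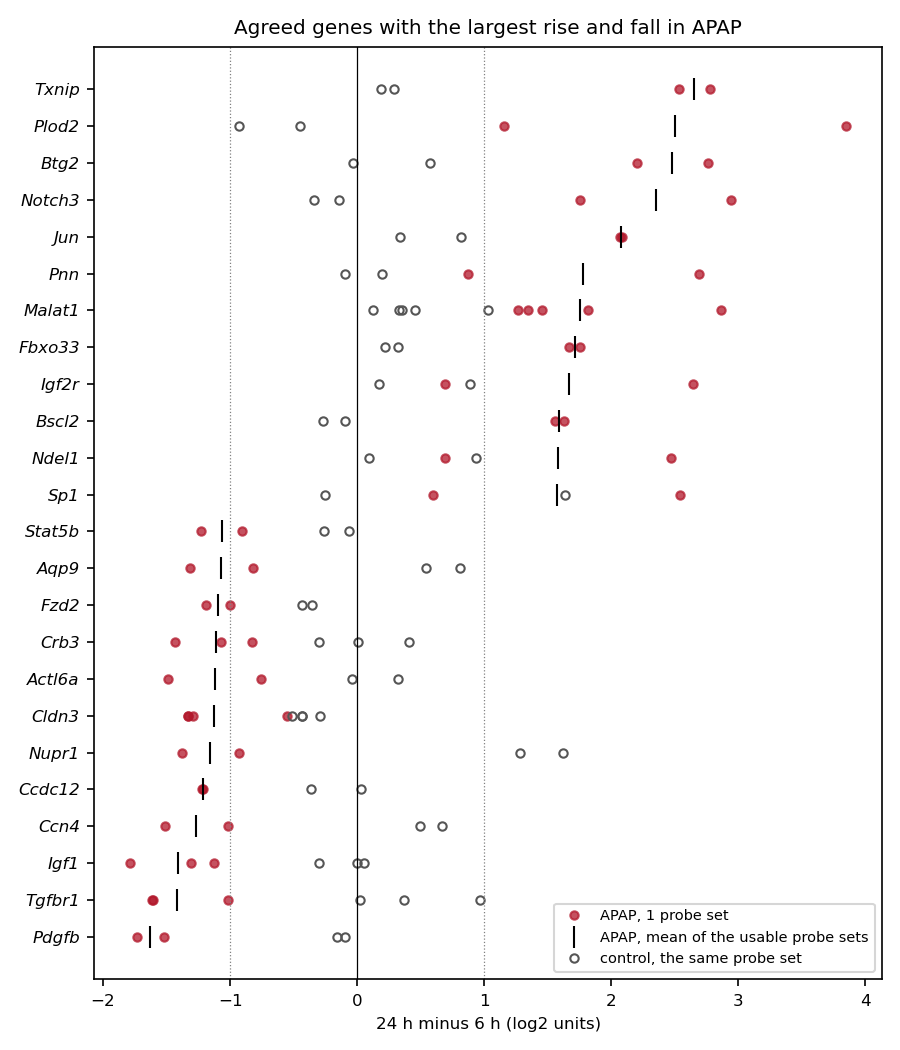
Difference between 24 h and 6 h (log2 units) for the 12 agreed genes with the largest rise and the 12 with the largest fall under APAP, ordered by their mean (black bar); filled points are single probe sets under APAP and open points the same probe sets in control medium. Txnip and Jun have probe sets close together, Plod2 has them at 1.16 and 3.85, and Nupr1 lies on the other side of 0 in control medium.

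The other arrays show where the agreed higher genes stood at each end of the difference, on the mean of the probe sets usable under APAP. In 23 of the 67, APAP 24 h was also at least 2-fold above APAP 2 h, and in 31 it was the highest of all 9 arrays. In 50 of the 67, APAP 6 h was the lowest of all 9 arrays, and 16 genes were in both counts. Over all 2661 genes with 2 or more usable probe sets, APAP 24 h was the highest in 19.4% and APAP 6 h the lowest in 26.5%. The 67 were chosen on these same 2 arrays, which favours both places, so these counts are a description. At 24 h, 13 of the 67 lay at least 2-fold above control medium of that time, and at 6 h 28 lay at least 2-fold below it. The median of the 67 against control medium of the same time was 0.39 at 24 h and -0.96 at 6 h.

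Genes with APAP 24 h as their highest array included Notch3, a receptor of the Notch pathway, and Bscl2. Notch3 was at 4.34, 4.47 and 6.82 after 2, 6 and 24 h of APAP, between 3.97 and 4.85 with AMAP and between 4.03 and 4.27 in control medium. The mean of its probe sets was above 5.66 on the APAP 24 h array alone. Notch3 was thus admitted by the value that makes it high, and its difference of 2.35 ± 0.84 (SD, 2 probe sets) starts from values below the usable level. Bscl2, whose product seipin shapes lipid droplets, was at 7.53, 7.96 and 9.55 under APAP, between 7.58 and 8.27 with AMAP and between 7.84 and 8.03 in control medium. Its 2 probe sets gave 1.59 ± 0.05, and APAP 24 h was again the highest array. Notch1, another Notch receptor, was agreed too, at 1.03 under APAP and 1.20 under AMAP, against 0.09 in control medium.

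Plod2, which hydroxylates lysines of procollagen, moved in both ways on the mean of its 2 probe sets. It was at 6.35, 5.0 and 7.50 after 2, 6 and 24 h of APAP, at 6.97, 6.03 and 5.98 with AMAP and at 5.87, 6.59 and 5.89 in control medium. On that mean APAP 6 h was the lowest and APAP 24 h the highest of the 9 arrays. The low at 6 h came from 1 probe set, at 4.01. On the other, APAP was at 5.99 at both 2 h and 6 h, above control medium at 24 h, at 5.56. APAP 24 h was the highest array on each. The probe sets of Plod2 gave 1.16 and 3.85, a mean of 2.50, so the size of its difference is uncertain by well over 2-fold. Ghr, the growth hormone receptor, was at 6.03, 5.73 and 7.22 under APAP and at 6.12, 6.36 and 5.62 in control medium. Its difference was 1.49 ± 0.41 under APAP (SD, 3 probe sets), against -0.81 in control medium. Id2, an inhibitor of helix-loop-helix factors, differed by 1.57 ± 0.75. Slc40a1, the iron exporter ferroportin, was at 6.40, 6.13 and 7.44 under APAP, a difference of 1.31 ± 0.04, against 0.13 in control medium. Ccnd2, a D-type cyclin, had 4 usable probe sets at 1.31 ± 0.09, and differed by 1.26 under AMAP and 0.36 in control medium. Chosen after their values were seen, the carriers Slc19a2 for thiamine and Slc22a5 for carnitine were agreed at 1.23 and 1.06, and both were more than 2-fold above APAP 2 h, by 1.53 and 1.26.

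The p53 targets were the list with the highest median. Of 35 usable members 34 were higher at APAP 24 h than at 6 h, against 55.8% of all usable genes, and the list median was 0.85 against 0.06 for all. Of its 13 members with 2 or more usable probe sets, 7 were agreed higher and 0 lower, where 2.52% and 0.601% of all such genes were. The 7 were Btg2, Mdm2, Trp53inp1, Cdkn1a, Polk, Ccng1 and Notch1, the last 2 named to complete the count. In control medium 16 of 33 were higher, where 37.1% of all genes were, and the median was -0.06. Of 12 with 2 or more usable probe sets 0 were agreed, where 0.42% of all such genes were agreed higher and 0.153% lower. Under AMAP 27 of 35 were higher, where 57% of all genes were, and the median was 0.63. There 6 of 12 with 2 or more usable probe sets were agreed higher, where 1.67% of all such genes were.

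Cdkn1a, the cyclin-dependent kinase inhibitor p21, was at 7.95, 8.33 and 9.73 after 2, 6 and 24 h of APAP, at 9.20, 7.35 and 9.25 with AMAP, and at 7.55, 7.89 and 8.22 in control medium. APAP 24 h was the highest of the 9 arrays, and with AMAP the 2 h and 24 h arrays were both high and the 6 h array low. The 24 h minus 6 h difference was 1.40 ± 0.17 under APAP, 1.91 under AMAP and 0.32 in control medium (SD, 2 probe sets). Mdm2, the ubiquitin ligase that degrades p53, was at 9.19, 9.06 and 10.54 under APAP, at 10.59, 9.04 and 10.64 with AMAP and at 9.07, 9.28 and 9.16 in control medium. It differed by 1.48 ± 0.60 under APAP and -0.12 in control medium. Polk, a DNA polymerase that copies past damaged bases, was at 6.89, 6.74 and 8.13 under APAP and at 6.77, 7.10 and 6.53 in control medium. Its probe sets gave 1.39 ± 0.05, against -0.57 in control medium. Trp53inp1, a p53-induced nuclear protein, was at 6.58, 6.83 and 8.30 under APAP, a difference of 1.47 ± 0.21, against 0.50 in control medium.

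Btg2, an antiproliferative p53 target, was at 7.49, 7.42 and 9.90 under APAP and at 9.67, 7.52 and 9.90 with AMAP. In control medium it was at 8.05, 7.84 and 8.11. Both compounds gave the same value at 24 h, and at 2 h only the AMAP array was high. The difference was 2.48 ± 0.40 under APAP, 2.38 under AMAP and 0.27 in control medium. Plk2, a polo-like kinase, had 1 usable probe set, at 9.32, 8.67 and 10.22 under APAP and 8.97, 9.51 and 9.23 in control medium, and was unchecked at 1.55. The promoters of Btg2 and Plk2 are shown because both hold a cAMP response element, the letters TGACGTCA (in capitals), which AP-1 and CREB/ATF factors are known to bind. They are RefSeq windows of GRCm38.p6, chr1:134079106-134079405 on the minus strand for Btg2 and chr13:110394794-110395093 on the plus strand for Plk2.
Btg2: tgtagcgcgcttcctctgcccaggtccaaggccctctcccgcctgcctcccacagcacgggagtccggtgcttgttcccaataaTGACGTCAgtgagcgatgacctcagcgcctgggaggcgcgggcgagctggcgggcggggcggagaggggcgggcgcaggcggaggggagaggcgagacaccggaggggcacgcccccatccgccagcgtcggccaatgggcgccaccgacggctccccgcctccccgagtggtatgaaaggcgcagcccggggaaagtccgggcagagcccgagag
Plk2: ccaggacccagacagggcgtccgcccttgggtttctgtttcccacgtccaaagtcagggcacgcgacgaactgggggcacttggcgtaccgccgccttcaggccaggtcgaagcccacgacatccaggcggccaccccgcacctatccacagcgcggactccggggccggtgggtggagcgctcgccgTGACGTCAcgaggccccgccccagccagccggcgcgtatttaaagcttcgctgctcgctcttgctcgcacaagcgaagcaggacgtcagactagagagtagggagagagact
These letters, which read the same on both strands, occur in 1.79% of all windows and in 2 of the 56 agreed higher genes with a window, Btg2 and Clk4. A p53 response element, the kind of site that p53 binds, was searched too and occurs in 0.0731% of all windows. Among agreed genes with a window it was in 1 of 56 higher genes, Cdkn1a, and in 0 of 12 lower genes. Other unchecked p53 targets were Ercc5, a nuclease of nucleotide excision repair, at 2.35, the reductase Dcxr at 1.82, and Phlda3, a repressor of Akt signalling, at 1.79. In control medium these 3 were at -0.31, -0.67 and -0.41. Read against the APAP 2 h array in place of 6 h, the list median was 0.94, against 0.11 for all genes, and 30 of 34 members were higher. Of 13 with 2 or more usable probe sets 8 were agreed higher, among 86 agreed higher genes in all.

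**Figure D3:**
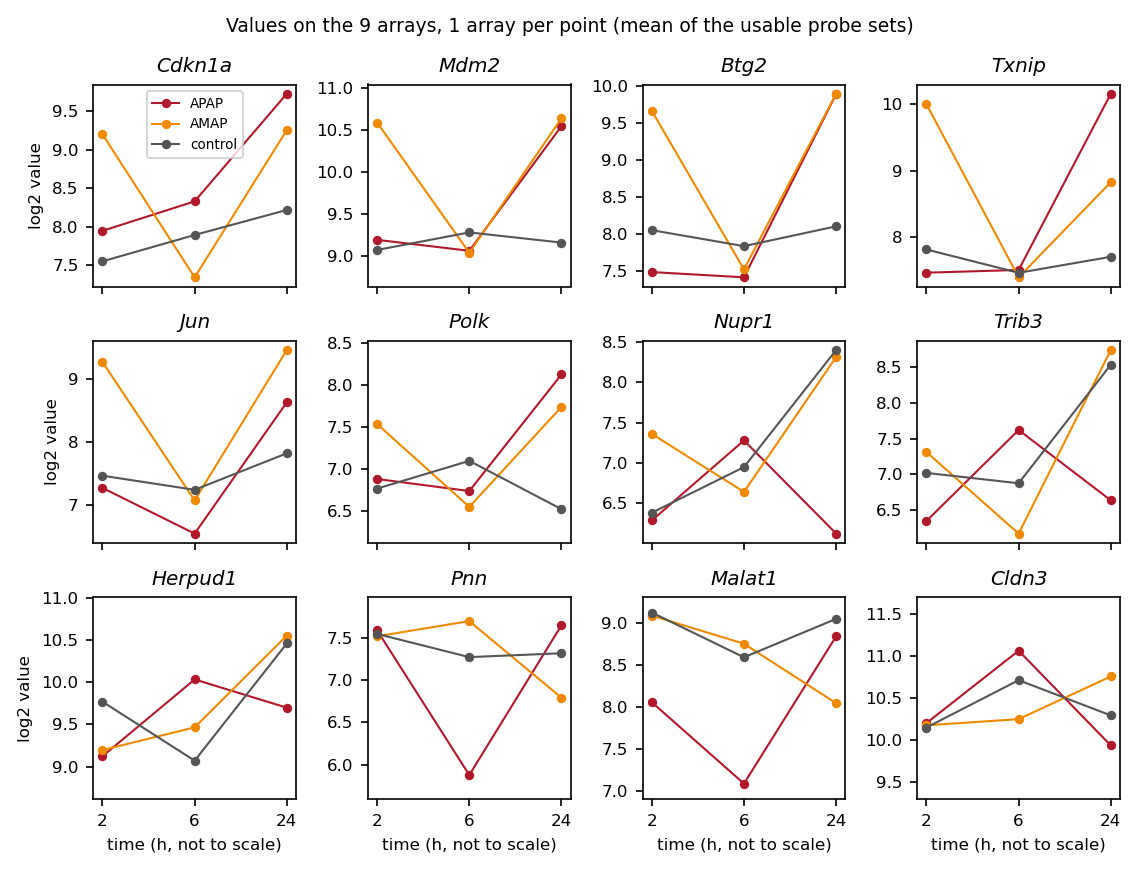
Log2 values of 12 genes after 2, 6 and 24 h (evenly spaced, not to scale) of APAP, AMAP or control medium, 1 array per point, as the mean of the usable probe sets. Cdkn1a, Mdm2, Btg2, Txnip, Jun and Polk end highest under APAP or AMAP at 24 h; Nupr1, Trib3 and Herpud1 end lower under APAP than in control medium; Pnn and Malat1 have their lowest value at APAP 6 h.

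Immediate-early genes, which are transcribed within minutes of a stimulus, were also higher at 24 h than at 6 h of APAP. Of 29 usable members of that list 23 were higher at APAP 24 h than at 6 h, the median was 0.62, and 11 reached 2-fold on their mean, 0 in the other direction, where 4.54% of all usable genes were 2-fold higher on their mean. In control medium 12 of 28 were higher and the median was -0.21, and under AMAP 22 of 29 were higher and the median was 0.44. Over all usable genes 55.8% were higher under APAP, 37.1% in control medium and 57% under AMAP. Jun, a subunit of AP-1, was agreed at 2.08 ± 0.01: it was at 7.27, 6.55 and 8.63 after 2, 6 and 24 h of APAP, at 9.27, 7.08 and 9.46 with AMAP and at 7.47, 7.24 and 7.82 in control medium. Both 24 h arrays of treated cells and the AMAP 2 h array stood above the rest. Atf3, a partner of Jun that also responds to ATF4, had 1 usable probe set, at 7.07, 6.47 and 9.84 under APAP, 10.59, 6.78 and 9.67 with AMAP, and 6.66, 7.03 and 7.73 in control medium, an unchecked difference of 3.37 under APAP. Egr1, a zinc-finger factor, was at 9.20, 7.80 and 10.80 under APAP and 9.67, 9.59 and 9.27 in control medium, an unchecked 3.0. The phosphatase Dusp1, which switches off MAP kinases, was at 9.48, 8.54 and 10.36 under APAP and 8.92, 8.89 and 9.88 in control medium, an unchecked 1.83, against 0.99 in control medium. Zfp36, which destabilises cytokine messages, was unchecked at 1.67, against -0.47 in control medium. Read from the 2 h arrays in place of 6 h, this contrast turned: the list median was 0.16 under APAP, with 17 of 29 higher and a median of 0.11 for all genes, and 0.35 in control medium.

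The ATF4 stress list parted from control medium in the other direction. Under APAP 7 of its 20 usable members were higher at 24 h than at 6 h and 12 lower, the median was -0.10, and 1 member with 2 or more probe sets was agreed, Nupr1, which was lower. Under AMAP 18 of 20 were higher, with a median of 1.09 and 6 agreed higher. In control medium 20 of 21 were higher, with a median of 0.71 and 4 agreed higher. Over all usable genes 55.8% were higher under APAP, 57% under AMAP and 37.1% in control medium. Of all genes with 2 or more usable probe sets, 0.601% were agreed lower under APAP. Agreed higher were 1.67% under AMAP and 0.42% in control medium. Nupr1, a small stress-induced nuclear protein, was at 6.28, 7.28 and 6.12 after 2, 6 and 24 h of APAP, at 7.36, 6.64 and 8.31 with AMAP and at 6.38, 6.95 and 8.40 in control medium. At 24 h APAP was the lowest of the 9 arrays while AMAP and control medium were the highest. Its difference was -1.16 ± 0.32 under APAP, 1.67 under AMAP and 1.45 in control medium (2 probe sets). It was the one gene agreed in both APAP and control medium in opposite directions. Against the APAP 2 h array the difference of Nupr1 was -0.16.

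Trib3, a pseudokinase that restrains ATF4 and Akt, was also lower at 24 h of APAP than at 24 h of AMAP or control medium. On its 1 usable probe set under APAP it was at 6.35, 7.62 and 6.64, against 7.31, 6.18 and 8.73 with AMAP and 7.02, 6.88 and 8.53 in control medium. Unlike Nupr1, Trib3 was higher at APAP 24 h than at APAP 2 h, and APAP 24 h was not its lowest array. Its difference was -0.98 under APAP. In control medium, where 2 probe sets were usable, it was agreed at 1.93. Herpud1, of the endoplasmic reticulum degradation pathway and chosen after its values were seen, was at 9.12, 10.04 and 9.70 under APAP and 9.77, 9.07 and 10.46 in control medium, differences of -0.34 and an agreed 1.39. The 3 members of the list at least 2-fold higher under APAP were Atf3, Ddit3 and Ppp1r15a. Ddit3, the factor CHOP, was at 6.33, 7.45 and 9.06 under APAP and 7.42, 7.28 and 8.28 in control medium, and Ppp1r15a, the phosphatase subunit GADD34, at 6.76, 6.97 and 8.62 against 6.78, 6.77 and 7.06. Both were unchecked, at 1.61 and 1.65. Against the APAP 2 h array the list median was 0.43, with 16 of 20 higher, and in control medium read the same way 0.80.

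The promoters of 3 members of this list are shown because they share the 8 letters TTGCATCA (in capitals), a C/EBP-ATF composite element of the kind ATF4 binds, although their genes differed in direction. They are RefSeq windows of GRCm38.p6: Atf3 at chr1:191183284-191183583 on the minus strand, Nupr1 at chr7:126625421-126625720 on the minus strand and Herpud1 at chr8:94386179-94386478 on the plus strand.
Atf3: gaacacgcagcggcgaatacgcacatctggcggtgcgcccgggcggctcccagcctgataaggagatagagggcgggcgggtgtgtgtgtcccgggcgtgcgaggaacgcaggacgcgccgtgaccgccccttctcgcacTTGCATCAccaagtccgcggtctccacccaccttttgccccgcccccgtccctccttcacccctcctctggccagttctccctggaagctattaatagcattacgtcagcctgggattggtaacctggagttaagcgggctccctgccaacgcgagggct
Nupr1: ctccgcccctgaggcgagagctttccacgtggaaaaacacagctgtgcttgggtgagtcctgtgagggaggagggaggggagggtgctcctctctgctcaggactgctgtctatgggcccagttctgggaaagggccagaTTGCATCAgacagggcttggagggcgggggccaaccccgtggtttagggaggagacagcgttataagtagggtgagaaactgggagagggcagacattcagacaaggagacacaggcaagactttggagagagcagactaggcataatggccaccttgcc
Herpud1: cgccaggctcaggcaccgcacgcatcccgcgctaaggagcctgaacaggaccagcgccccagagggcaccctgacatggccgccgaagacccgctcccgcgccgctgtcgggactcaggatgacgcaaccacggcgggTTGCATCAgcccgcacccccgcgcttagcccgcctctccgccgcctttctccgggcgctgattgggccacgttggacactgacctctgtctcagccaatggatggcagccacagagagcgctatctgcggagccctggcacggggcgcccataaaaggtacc
Searched on both strands, these letters occur in 0.895% of all windows. Among the agreed genes with a window they are in Polk of 56 higher genes and in Nupr1 of 12 lower genes. No match of the 4 kinds of element searched overlaps another in the windows printed, and a match says nothing of binding.

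Genes of amino acid synthesis, transport and tRNA charging, many of them ATF4 targets, were lower in 20 of 28 at APAP 24 h. Of all usable genes 44% were lower, and the list had a median of -0.16 and 0 agreed. In control medium 26 of 29 were higher, against 37.1% of all genes, with a median of 0.25. Under AMAP 24 of 28 were higher, against 57% of all genes, with a median of 0.73. There 4 of 17 with 2 or more usable probe sets were agreed higher, where 1.67% of all such genes were. The 2 largest differences in size were positive: Eprs, a tRNA synthetase, gave a mean of 0.60, with probe sets from 0.02 to 1.69, and Slc38a2, a neutral amino acid transporter, gave 0.57, against 0.36 for each in control medium. Slc6a9, a glycine transporter, was at 5.86, 6.83 and 6.31 after 2, 6 and 24 h of APAP, 6.38, 6.05 and 7.50 with AMAP and 6.20, 6.39 and 6.99 in control medium. Psat1, of serine synthesis, differed by -0.46 under APAP and 0.78 in control medium, and Sars, the seryl-tRNA synthetase, by -0.43 and 0.39.

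Cholesterol synthesis had the lowest list median, -0.43, with 15 of 19 members lower at APAP 24 h, against 44% of all usable genes. None of its 11 members with 2 or more probe sets was agreed at 2-fold. At 1.5-fold 5 were agreed lower, among 88 agreed lower genes in all. In control medium 12 of 19 were lower, against 61.6% of all genes, with a median of -0.11. Under AMAP 8 of 19 were lower, against 42.3% of all genes, with a median of 0.23. Hmgcs1, which makes the HMG-CoA of the pathway, was at 10.03, 9.45 and 8.47 after 2, 6 and 24 h of APAP, at 10.17, 10.25 and 9.90 with AMAP and at 10.26, 9.81 and 10.46 in control medium. APAP 24 h was the lowest array, 4 probe sets gave -0.98 ± 0.26, and the control difference was 0.65. Fdps, the farnesyl diphosphate synthase, was at 11.13, 11.59 and 10.55 under APAP and 11.23, 11.38 and 11.05 in control medium, an unchecked -1.04. The mevalonate enzymes Mvd and Mvk differed by -0.81 and -0.82, and Hsd17b7 by -0.75. Against the APAP 2 h array the list median was -0.38, with 16 of 19 lower. Fatty acid oxidation and lipid handling lay on the other side, with 18 of 22 higher, against 55.8% of all usable genes. The list median was 0.41, against 0.20 in control medium. With the control difference subtracted its median was 0.06, with 14 of 22 higher, against 0.14 for all genes. Its members included Pdk4, which spares pyruvate, at 7.89, 5.66 and 7.27 under APAP, where 24 h was below 2 h, and Fabp1, the liver fatty acid binding protein, at 8.99, 9.07 and 9.80.

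Several RNA-binding and splicing genes had APAP 6 h as their lowest array on the mean of their usable probe sets. Pnn, the splicing-linked protein pinin, was at 7.59, 5.88 and 7.66 after 2, 6 and 24 h of APAP, at 7.52, 7.70 and 6.79 with AMAP and at 7.55, 7.28 and 7.32 in control medium. The 6 h APAP array was the lowest of the 9. Its probe sets gave 2.69 and 0.87, a mean of 1.78, against -0.01 in control medium. Malat1, a long non-coding RNA of nuclear speckles, had 5 usable probe sets, at 8.06, 7.09 and 8.84 on average under APAP, 9.09, 8.75 and 8.05 with AMAP and 9.12, 8.59 and 9.05 in control medium. All 5 were higher at APAP 24 h, from 1.27 to 2.86, with a mean of 1.75 ± 0.66. Their average at APAP 24 h was below control medium of that time. The probe sets were split on this, with 1 at 8.30 against 9.62 and another at 7.93 against 7.37. Sp1, a general transcription factor, was at 7.62, 5.74 and 7.31 under APAP, with probe sets at 0.60 and 2.54. Srsf11, an SR splicing factor, was at 8.62, 7.51 and 8.51 under APAP and 8.69, 8.77 and 7.74 with AMAP, and Clk4, a kinase of SR proteins, at 6.94, 6.62 and 7.73 under APAP. Clk4 at 24 h was also the highest of the 9 arrays, 0.79 above APAP 2 h. Of the 33 splicing genes with 2 or more usable probe sets, 3 were agreed higher under APAP (Pnn, Clk4 and Srsf11), where 2.52% of all such genes were. With no filter on low values 2 of 36 were. In control medium 0 of 34 were agreed higher, where 0.42% of all such genes were. Under AMAP 7 of 34 were agreed lower, where 2.75% of all such genes were. The list median was 0.15 under APAP, -0.36 under AMAP and 0.09 in control medium. Against the APAP 2 h array it was -0.20. Rpa1, a subunit of the single-strand DNA binding protein, showed the same course, at 9.91, 8.64 and 9.90, as did the receptor Igf2r, at 6.84, 5.69 and 7.36 with probe sets at 0.69 and 2.64. Other agreed genes of the top 12 were Ndel1, a dynein regulator, at 1.58 and the F-box protein Fbxo33 at 1.71. Both were lowest at APAP 6 h and highest at APAP 24 h, which was above APAP 2 h by 0.99 for Ndel1 and 0.74 for Fbxo33. At APAP 6 h both probe sets of Fbxo33 were below 5.66, at 5.09 and 4.67, so its 24 h values admitted it. The same holds for 1 probe set of Ndel1, at 4.58. Apaf1, the scaffold of the apoptosome, was at 6.51, 5.69 and 7.11 under APAP, a difference of 1.42 ± 0.52, against -0.25 in control medium.

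The lowest of the 16 agreed lower genes were Pdgfb, Tgfbr1 and Igf1, which belong to growth factor signalling. Pdgfb, the platelet-derived growth factor B chain, was at 8.23, 9.14 and 7.52 after 2, 6 and 24 h of APAP, at 8.26, 7.96 and 8.84 with AMAP and at 7.05, 8.36 and 8.24 in control medium. APAP 6 h was the highest of the 9 arrays, and the difference was -1.63 ± 0.15 (SD, 2 probe sets), against -0.13 in control medium. Tgfbr1, the type I receptor for TGF-beta, was at 7.07, 7.59 and 6.18 under APAP and 6.99, 7.82 and 8.27 in control medium. APAP 24 h was the lowest array, and 3 probe sets gave -1.41 ± 0.34, against 0.45. Igf1, the insulin-like growth factor, was at 6.28, 7.13 and 5.73 under APAP, 5.66, 7.32 and 6.32 with AMAP and 6.72, 6.39 and 6.31 in control medium, a difference of -1.41 ± 0.34 under APAP. Stat5b, which carries the growth hormone signal to Igf1, was at 6.02, 7.13 and 6.06 under APAP, so 24 h was 0.04 above 2 h. The growth hormone receptor gene Ghr, above, lay on the other side. Ccn4, a secreted Wnt-induced protein, differed by -1.26 under APAP and 0.58 in control medium, and the Wnt receptor Fzd2 by -1.10 and -0.40.

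Cldn3, a claudin of tight junctions, had 4 usable probe sets and was at 10.20, 11.06 and 9.94 after 2, 6 and 24 h of APAP, 10.17, 10.25 and 10.76 with AMAP and 10.15, 10.71 and 10.29 in control medium. Its difference was -1.13 ± 0.38, against -0.42 in control medium. The polarity gene Crb3 was at 6.36, 7.45 and 6.34 under APAP, a difference of -1.11 ± 0.30 over 3 probe sets. In the list of keratins and epithelial junction genes Cldn4 and Gjb2, a connexin, were unchecked at -1.37 and -1.01, and the keratin Krt20 was at 0.94, against -0.55 in control medium. Of its 18 usable members 8 were higher and 10 lower, where 44% of all usable genes were lower. The list median was -0.16 against 0.09 in control medium. Aqp9, the glycerol channel of hepatocytes, was at 5.08, 6.61 and 5.54 under APAP, 6.90, 5.98 and 7.18 with AMAP and 5.46, 6.53 and 7.20 in control medium, a difference of -1.07 ± 0.35 under APAP and 0.68 in control medium. Actl6a, of chromatin remodelling complexes, was at 8.18, 7.33 and 6.21 under APAP, lower at each time, with a difference of -1.12 from 6 to 24 h. Ccdc12 differed by -1.21 ± 0.01. In 9 of the 16 APAP 24 h was the lowest array and in 10 APAP 6 h was the highest. Over all 2661 genes with 2 or more usable probe sets these shares were 12.9% and 16.9%. The 16 were chosen on these same 2 arrays, which favours both places, so the counts are a description. At APAP 24 h, 2 of the 16 were at least 2-fold below APAP 2 h. Pro-apoptotic Bok was unchecked, at 8.12, 8.51 and 6.97 under APAP and 7.89, 7.75 and 7.89 in control medium.

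Of the 67 agreed higher genes 0 were agreed higher in control medium, 40 of 66 usable there were higher, where 37.1% of all usable genes were, and their median control difference was 0.09. Of the 16 agreed lower genes 0 were agreed lower in control medium, where Nupr1 was agreed higher, and 7 of 15 were lower, where 61.6% of all usable genes were. Across 2508 genes with 2 or more usable probe sets in both, the APAP and control differences had a Pearson r of 0.03 and a Spearman rho of 0.05, as a description across genes, which are not independent replicates. For APAP and AMAP the values were -0.08 and -0.13 over 2559 genes. Of the 67, 9 were agreed higher under AMAP as well, which is 13.4% of the APAP genes and 20% of the 45 AMAP genes, and 5 were agreed lower there. Of all genes with 2 or more usable probe sets under AMAP, 1.67% were agreed higher and 2.75% lower. The AMAP pair holds 1 array with the shifted ratio of the first dap pair and 1 without, and the 2 compounds were not compared by a test.

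**Figure D4:**
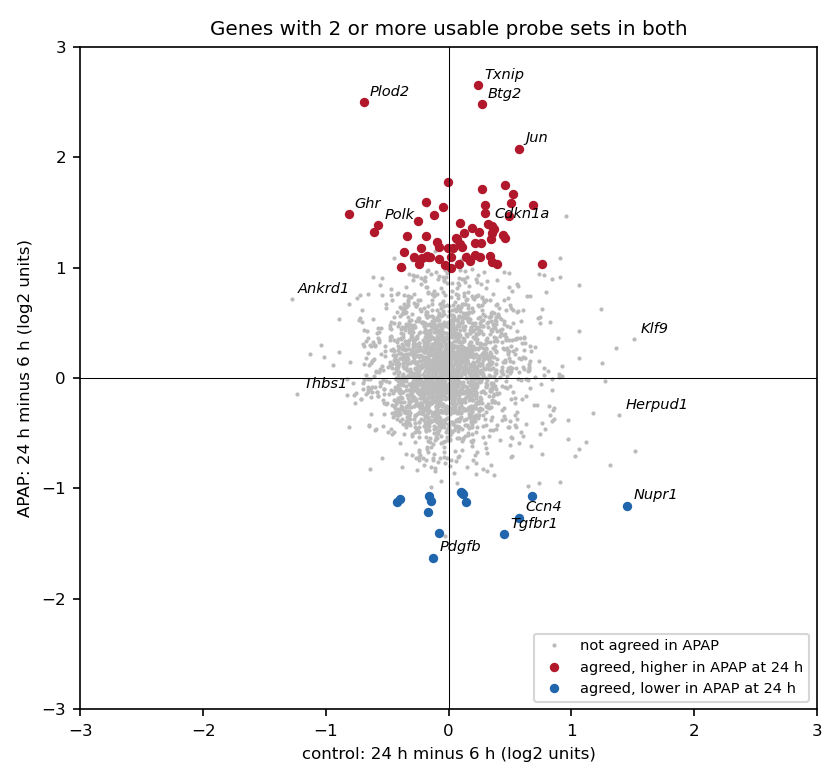
Difference between 24 h and 6 h (log2 units) under APAP (vertical) against control medium (horizontal) for the 2508 genes with 2 or more usable probe sets in both; agreed genes under APAP are coloured by direction. The cloud has no tilt (r of 0.03), and Nupr1 is the one coloured gene far out on both axes, at -1.16 and 1.45.

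With the control difference subtracted probe set by probe set, 120 genes were agreed higher and 42 lower, 4.33% and 1.51% of 2773 genes, and 45 of the 67 and 13 of the 16 were among them. The subtracted value contains the APAP difference on which the 67 and the 16 were chosen. That favours the overlap, so these counts are a description. The share of higher genes, 74.1%, depended on scaling. It was 38.1% (53 higher, 86 lower) after median centring, which moved the median of all genes by -0.200, 55.2% (79 and 64) after quantile normalization, with a shift of -0.127, and 46.6% (62 and 71) after cyclic loess, with a shift of -0.159. The highest were Plod2 at 3.19, Notch3 at 2.59, although its control values are below the usable level, Txnip at 2.41, Ghr at 2.23, Btg2 at 2.21 and Ankrd1 at 1.99. Ankrd1, a stress-responsive target of YAP, was at 8.81 after 24 h and 8.10 after 6 h of APAP, against 7.77 and 9.05 in control medium, where it was agreed lower. The lowest were Trib3 at -2.62, Nupr1 at -2.61, the linker histone H1f2 at -2.10, Tgfbr1 at -1.87, Ccn4 at -1.84 and Socs2, a feedback inhibitor of growth hormone signalling, at -1.80. On the 1 probe set usable under APAP, Socs2 was at 6.13, 6.95 and 6.06 under APAP and 5.70, 6.16 and 7.34 in control medium. Klf9, a Krüppel-like factor, differed by 0.35 under APAP and was agreed higher under AMAP at 1.45 and in control medium at 1.51. Cd36, a fatty acid transporter, differed by 0.14 under APAP, 1.08 under AMAP and 1.25 in control medium. Klf9 and Cd36 were chosen after their values were seen.

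Enzymes of drug metabolism were few above the median, with 13 of 33 usable, and most rested on 1 probe set. Of the 13, 10 were higher under APAP and 10 in control medium, where 55.8% and 37.1% of all usable genes were. The medians were 0.54 and 0.32. Ces2g, a carboxylesterase, was at 6.45, 5.29 and 7.62 after 2, 6 and 24 h of APAP and at 5.94, 5.47 and 5.74 in control medium, an unchecked 2.32. Fmo1, a flavin monooxygenase, was at 6.09, 6.46 and 4.72 under APAP and at 5.73, 6.09 and 6.78 in control medium, an unchecked -1.74 and the lowest of the 9 arrays at 24 h. Ephx1, the microsomal epoxide hydrolase, was at 9.54, 10.29 and 11.14 under APAP, a difference of 0.85, against 0.14 in control medium. Apob, of the lipoproteins that liver secretes, was at 10.36, 9.09 and 11.15 under APAP and 10.64, 10.73 and 11.23 in control medium, so APAP 6 h was the low array. Of the inflammation genes Bcl3, a nuclear co-factor of NF-kB, was unchecked at -1.34 and the cytokine Csf2 at 1.65, and the list median was -0.05.

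Autophagy and lysosome genes were higher in 26 of 33 under APAP, against 55.8% of all usable genes, and 0 were agreed at 2-fold. Their median was 0.27 under APAP, 0.35 under AMAP and 0.00 in control medium. Becn1, which starts autophagosome formation, was at 7.76, 6.67 and 7.56 under APAP, and the lysosomal protease gene Ctsd at 10.14, 10.15 and 10.91. Ribosome biogenesis genes were lower in 23 of 34 under APAP, against 44% of all usable genes, with a median of -0.23. Control medium gave 29 of 34 lower, against 61.6% of all genes, and a median of -0.30. Mitosis genes had a median of -0.12 under APAP, -0.57 under AMAP and -0.24 in control medium. Of the clock genes Nr1d1, a nuclear receptor that represses Arntl, was at 4.78, 3.71 and 6.28 under APAP on 1 probe set. It lay between 4.67 and 5.25 with AMAP and between 4.44 and 4.67 in control medium. Only the APAP 24 h array reached the usable level, so Nr1d1 was admitted by the value that makes it high. Of the clock list 8 of 14 were higher, near the 55.8% of all genes. The list median was 0.46, against 0.35 in control medium. With no filter on low values the order turned, at 0.11 under APAP and 0.24 in control medium. D-type cyclins and G1 regulators, a list that holds Txnip, had a median of 0.25 under APAP and 0.04 in control medium. Heat shock genes had a median of 0.11, and Hsp90aa1, the inducible HSP90, was at 10.66, 9.31 and 10.27 under APAP. The 6 hepatocyte markers had a median of 0.62 against 0.10 in control medium and -0.23 under AMAP, with Apoa1, of high density lipoprotein, at 0.56 ± 0.10 over 4 probe sets. The wider hepatocyte identity list had a median of 0.15, against 0.16 in control medium. Against the APAP 2 h array the medians of the autophagy, hepatocyte identity and NRF2 lists were 0.625, 0.612 and 0.477. Read from 6 h, medians of the NRF2, interferon, glycolysis, respiratory chain, DNA replication, proteasome and chaperone lists lay between 0.03 and 0.10, and those of the fatty acid synthesis, metallothionein and iron, apoptosis and matrix lists between -0.13 and 0.09.

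**Figure D5:**
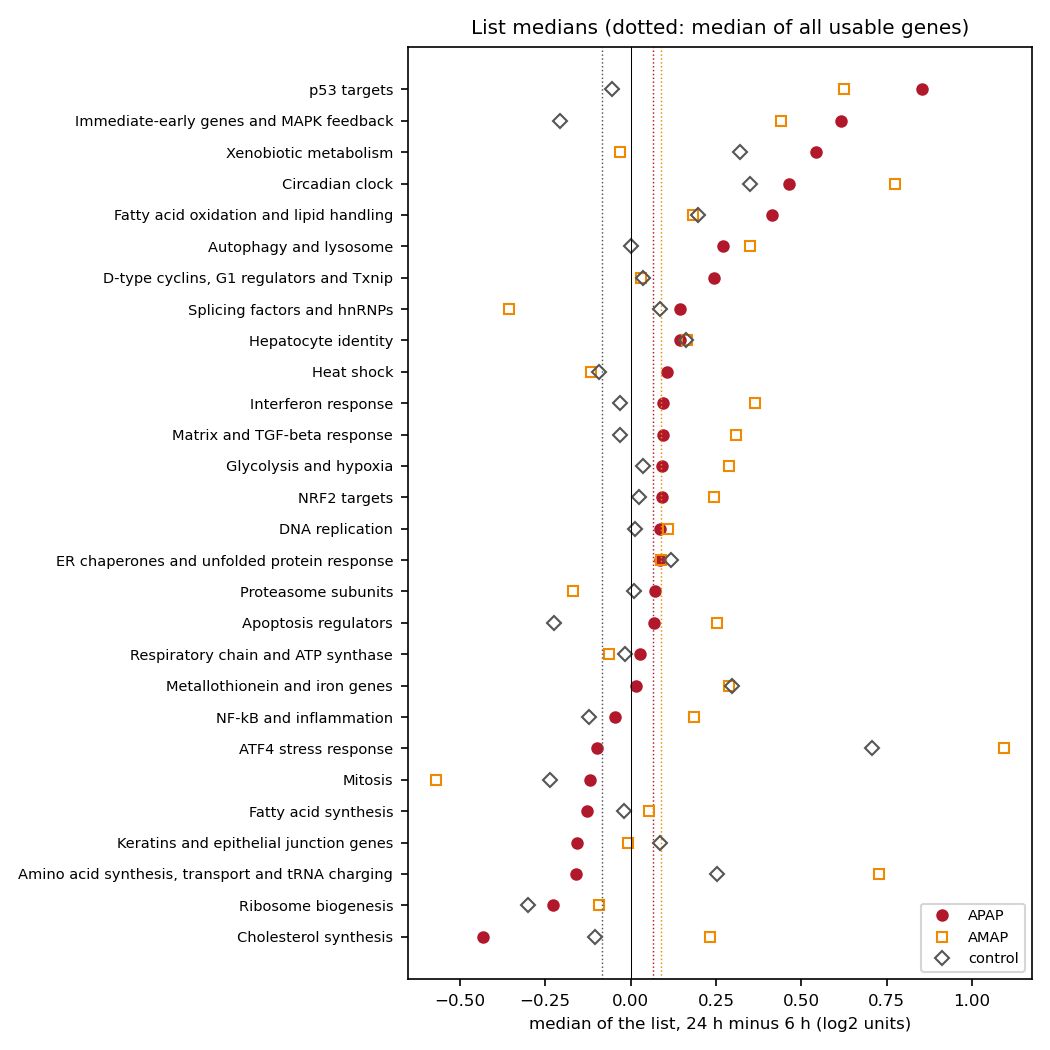
Median difference between 24 h and 6 h (log2 units) of each of the 28 gene lists under APAP (filled circles), AMAP (open squares) and control medium (open diamonds), ordered by APAP; dotted lines mark the median of all usable genes in each. The p53 targets are highest under APAP at 0.85 and cholesterol synthesis lowest at -0.43, and the ATF4 list is at -0.10 under APAP, 1.09 under AMAP and 0.71 in control medium.

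Close to the threshold, Wnk1, Rsrc2 and Srsf11 were just inside, at 1.02, 1.0015 and 1.0, and Cdc7, Rap2b and Nectin2 just outside, at 0.99, 0.99 and -0.99.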

How the data were processed

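RNA of 9 samples of TAMH cells, 1 for each treatment and time, was hybridised to Affymetrix 430A_2 arrays. The authors deposited log2 values of probe sets. Per the submitters' processing notes they used RMA and Affymetrix Expression Console, with no version named. RMA sets the probe intensities of all arrays to a common distribution, which hides any change in RNA per cell and shrinks the differences of dim probe sets. Groups came from the sample titles.

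Probe sets were named from GEO's platform annotation: 20380 had 1 symbol, 691 several and 1555 none, and 64 control probe sets were kept apart. The 24 h minus 6 h difference was taken per probe set with pandas 2.3.3 in Python 3.11.15, and a gene was judged by the agreement of its usable probe sets. With 1 array per group no test was made, and the number of arrays limits the precision. Alternatives were a 1.5-fold threshold, other filters and agreement rules, the brightest probe set, no _x_at or _s_at probe sets, and median centring, quantile normalization and cyclic loess (limma 3.58.1, R 4.3.3). Reading from the 2 h arrays was added after seeing the data.

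Genes named were the 12 highest and 12 lowest agreed under APAP, the 6 highest and 6 lowest after subtracting control medium, up to 5 members of each described list by size and up to 4 further agreed members, Cdkn1a, Mdm2, genes agreed in opposite directions in APAP and control medium, and 3 on each side of the threshold; others are said to be chosen after their values were seen. There were 28 pathway lists and 5 of cell-type markers (macrophage, stellate cell and fibroblast, endothelial cell, cholangiocyte, hepatocyte). The members and lists were chosen with earlier results of these data known. Some genes are in more than 1 list. Promoters came from RefSeq (GRCm38.p6), matched by symbol for 56 of 67 agreed higher and 12 of 16 agreed lower genes.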

Additional observations from a re-analysis of the deposited data

Results flagged for a closer look

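In 7 genes the 24 h minus 6 h difference was agreed in opposite directions under APAP and in another group. With 1 array per group these differences between groups were not tested. Ddx6 and Esf1 are named here because of this pattern, after their values were seen.

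Nupr1 was at -1.16 under APAP, 1.67 under AMAP and 1.45 in control medium (log2 difference). Aqp9 was at -1.07 under APAP and 1.20 under AMAP. The other 5 genes were higher under APAP and lower under AMAP. In each of them APAP 6 h was the lowest of the 9 arrays on the mean of the probe sets usable under APAP. Pnn was at 1.78 under APAP and -1.18 under AMAP. Esf1, a nucleolar protein of ribosome production, was at 1.36 and -1.07, and Ddx6, a helicase of messenger RNA turnover, at 1.27 and -1.10. The kinase gene Wnk1 was at 1.02 under APAP and -1.06 under AMAP, and the splicing factor Srsf11 at 1.0 and -1.03. The arrays at APAP 6 h, APAP 24 h and AMAP 24 h carry the shifted ratio of the first dap pair and the AMAP 6 h array does not; the part of this in the opposite directions was not tested.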

How the results depend on the processing

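Of the 11 alternative settings, 4 change only the calling rule and cannot move a gene's value. The other 7 gave 266 values of the 38 named genes that were agreed, and unchecked genes were not part of this. Of these values 244 moved by less than the gene's SD over its probe sets, 22 moved by more and 0 changed sign. That SD is wide where probe sets disagree, such as 1.90 for Plod2, so few moves can exceed it there. Of 196 list medians 194 moved by less than 0.29. Counts of agreed genes depended on the rule. They are given as higher and lower, for APAP, AMAP, control medium and the APAP change minus the control change, against 67 and 16, 45 and 74, 11 and 4, and 120 and 42. At 1.5-fold they were 238 and 88, 211 and 209, 60 and 76, and 363 and 135. With each probe set 2-fold they were 24 and 6, 22 and 22, 7 and 2, and 55 and 24. With no agreement asked they were 324 and 106, 212 and 335, 57 and 24, and 560 and 206. With the brightest probe set they were 360 and 125, 223 and 334, 53 and 30, and 616 and 215. Those last 2 also admit genes with 1 usable probe set.

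Asking only the same sign gave 23 higher in control medium, 117 lower under AMAP and 65 lower for the APAP change minus the control change, and no filter on low values gave 2 lower in control medium. Median centring gave 41 higher under APAP, 18 higher in control medium, and 53 and 86 for the APAP change minus the control change. Quantile normalization gave 79 and 64 for the last, and cyclic loess 62 and 71, with 28 higher under AMAP and 17 higher in control medium. The cause of these moves was not tested. Of the lists, xenobiotic metabolism moved to 0.20 and the circadian clock to 0.11 with no filter on low values.

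Reading from 2 h in place of 6 h, an alternative added after seeing the data, gave 86 higher and 67 lower under APAP, 18 higher and 0 lower in control medium, and 96 lower for the APAP change minus the control change. It also changes which probe sets are usable. The signs turned for Pnn (-0.526, over 3 usable probe sets), Sp1 (-0.318), Rpa1 (-0.008), Srsf11 (-0.112), Wnk1 (-0.428), Crb3 (0.051) and Stat5b (0.035), although over the probe sets usable from 6 to 24 h Pnn was at 0.06 and Crb3 at -0.02, which is no turn. The medians of 8 lists moved by more than 0.29, among them heat shock to -0.41 and hepatocyte identity to 0.61. No paired analysis was possible because each group has 1 array. Dim probe sets near 5.66 limit what could be read, since RMA narrows their differences.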
